A study of Homo sapiens with 9 samples.

Results

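Named antisense lncRNAs are long noncoding transcripts whose symbol is that of a protein-coding gene followed by -AS and a number, because they are transcribed from the strand opposite to that gene. The 528 members were selected on their summed counts: of 1827 genes of this kind in a table of 57163 genes, they had at least 45 reads in total over 9 libraries, an average of 5 per library. Symbols came from GENCODE, and IGF2-AS and OIP5-AS1 were left out by the same rule. Each member was set beside its partner, the protein-coding gene whose name precedes -AS. All 9 libraries were RNA-seq of 293T, a transformed line from human embryonic kidney, 48 h after transfection with a lentiviral expression plasmid. The plasmid carried the open reading frame of NRF1, E2F4, EGR1 or ZBTB7A (CLB_TFs, which the study defined by their preferred binding at promoters of conserved lncRNAs), of HOXA11, RORA, TFCP2 or NKX2-8 (control TFs), or, in the control, no TF (the sample label calls the control a blank, and the methods name an empty plasmid). Each condition had 1 library, so no difference from the control can be checked against replicates, and each one describes a pair of libraries.

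Antisense transcripts often begin near the start of the partner and run away from it, or run through the body of the partner in the opposite direction. Some are known to act on the partner in cis, by transcription through its promoter, by recruitment of chromatin factors or by pairing with its mRNA, while for most no function is known. NRF1 is an activator of genes for mitochondrial respiration, E2F4 belongs to the E2F factors of the cell cycle, EGR1 is an immediate early factor and ZBTB7A is mostly known as a repressor. The study asked whether lncRNAs change when such factors are raised, and the comparison here asked in addition whether an antisense lncRNA and its partner changed together.

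A partner was required to lie on the chromosome of the member. Of the 528 members, 511 had a partner, in 509 cases on the opposite strand. HILPDA-AS1 and FAM131B-AS2 are annotated on the same strand as theirs. A further 17 had no protein-coding gene of that name on their chromosome, such as ZNF295-AS1 and KRTAP5-AS1. The start of the member lay within 1 kb of the partner's start on the other strand in 190 pairs, the bodies overlapped with starts farther apart in 314 pairs, and they did not overlap in 7. Exons of the member and the partner shared bases in 379 pairs and none in 132. The partner reached 45 reads itself in 468 pairs. A partner named by 2 members occurred 5 times (TRIM7, TFAP2A, DNAJC9, ZNF503 and PTOV1), and such members are not independent.

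The first 5 promoter windows below show what lies at starts that face a partner. They belong to 5 of the members named by the rule in the methods. These start within 1 kb of the partner and, among such named members, had the largest rise in the NRF1 library. FMNL1-AS1 was added after its motif was seen because no window of the 5 held a searched motif. Its start lies 20290 bases from that of FMNL1, so its window is not at a start that faces the partner's. Each window runs 5′ to 3′ on the strand of the lncRNA, from 250 bases before its start to 50 from the start on, in GRCh37. They are chr1:15478911-15479210 (minus strand) for TMEM51-AS1, chr12:54333378-54333677 (minus) for HOXC13-AS, chr2:96873904-96874203 (plus) for STARD7-AS1, chr13:28712281-28712580 (minus) for PAN3-AS1, chr1:151319193-151319492 (plus) for RFX5-AS1 and chr17:43319052-43319351 (minus) for FMNL1-AS1. In the first 5 windows capitals mark the annotated first exon side, the 50 bases from the start on, and in FMNL1-AS1 they mark the motif NRF1 is known to bind. The TMEM51 start lies 68 bases before that of TMEM51-AS1, so the pair is divergent with no shared exon base, and PAN3 likewise starts 313 bases before PAN3-AS1. The starts of HOXC13, STARD7 and RFX5 lie 878, 409 and 390 bases downstream of the antisense start, so that the first exons can overlap head to head.
TMEM51-AS1: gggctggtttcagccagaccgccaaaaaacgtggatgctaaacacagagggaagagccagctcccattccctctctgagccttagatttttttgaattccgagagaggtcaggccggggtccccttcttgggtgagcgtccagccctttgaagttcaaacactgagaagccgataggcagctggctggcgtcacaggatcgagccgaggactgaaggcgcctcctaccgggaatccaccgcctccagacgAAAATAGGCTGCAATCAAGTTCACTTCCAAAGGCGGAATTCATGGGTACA
HOXC13-AS: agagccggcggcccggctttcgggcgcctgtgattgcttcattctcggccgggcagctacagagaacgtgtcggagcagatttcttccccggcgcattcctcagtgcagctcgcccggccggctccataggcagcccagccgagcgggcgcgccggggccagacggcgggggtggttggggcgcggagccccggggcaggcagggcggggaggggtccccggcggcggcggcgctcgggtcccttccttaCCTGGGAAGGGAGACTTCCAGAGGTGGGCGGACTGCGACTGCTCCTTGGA
STARD7-AS1: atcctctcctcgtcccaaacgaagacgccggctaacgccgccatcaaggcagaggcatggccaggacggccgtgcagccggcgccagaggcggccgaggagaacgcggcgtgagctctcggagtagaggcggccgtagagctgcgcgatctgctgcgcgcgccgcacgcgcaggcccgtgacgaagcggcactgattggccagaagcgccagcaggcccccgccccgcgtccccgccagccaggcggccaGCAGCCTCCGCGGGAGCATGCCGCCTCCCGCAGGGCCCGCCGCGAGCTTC
PAN3-AS1: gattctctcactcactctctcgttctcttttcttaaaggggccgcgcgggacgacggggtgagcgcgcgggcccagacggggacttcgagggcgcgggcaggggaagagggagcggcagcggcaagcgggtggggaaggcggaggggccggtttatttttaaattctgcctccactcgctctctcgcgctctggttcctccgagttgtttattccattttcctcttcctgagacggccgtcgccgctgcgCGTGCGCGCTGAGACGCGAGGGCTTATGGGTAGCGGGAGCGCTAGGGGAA
RFX5-AS1: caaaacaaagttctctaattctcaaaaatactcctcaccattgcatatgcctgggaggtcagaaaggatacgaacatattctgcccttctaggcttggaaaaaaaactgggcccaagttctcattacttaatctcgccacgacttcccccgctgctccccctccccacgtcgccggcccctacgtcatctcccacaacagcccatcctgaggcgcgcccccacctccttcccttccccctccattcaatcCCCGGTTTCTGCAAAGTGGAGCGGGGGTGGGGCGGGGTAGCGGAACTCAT
FMNL1-AS1: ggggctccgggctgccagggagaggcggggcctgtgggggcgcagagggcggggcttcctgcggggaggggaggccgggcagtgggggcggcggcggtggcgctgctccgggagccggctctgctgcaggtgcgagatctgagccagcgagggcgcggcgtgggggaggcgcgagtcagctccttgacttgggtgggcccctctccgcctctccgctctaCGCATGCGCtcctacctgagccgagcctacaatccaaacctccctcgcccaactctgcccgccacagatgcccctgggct

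Motifs were searched as exact letters on both strands of such windows. The NRF1 motif GCGCATGCG stood in 13 of 528 member windows (2.46%), against 2.63% for the other lncRNAs with at least 45 reads, 2.85% for all genes with at least 45 reads and 1.23% for all genes of the table. By the measure below, 0 of these 13 members rose in the NRF1 library, beside 12 of the 479 genes with at least 45 reads that hold the motif (2.51%), a share at which 13 members are too few to show a difference. Their log2 fold changes ran from -0.53 to 0.96, with a median of 0.21, beside 0.30 for members without the motif. FMNL1-AS1, with the motif 30 bases before its start as printed above, where the capitals are its letters read on the other strand, had 26 reads in the NRF1 library and 42 in the control library. Either E2F motif (TTTGGCGC or TTTCCCGC) stood in 13 windows (2.46%, all genes with at least 45 reads 2.87%), and 0 of these members rose in the E2F4 library, beside 19 of 482 such genes (3.94%). Either EGR1 motif (GCGTGGGCG or GCGGGGGCG) stood in 40 windows (7.58%, all such genes 8.17%), and 2 of these members rose in the EGR1 library, beside 32 of 1371 such genes (2.33%). Median GC content was 64% in member windows, 60% in windows of other lncRNAs and 62.7% in those of mRNAs, and it was 67% for members that start within 1 kb of the partner.

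Most members were expressed at low levels. Their sums ran from 45 to 12092 reads with a median of 211.5, and the median of their mean levels was 1.43 CPM, reads per 1e+06 scaled reads. The mean was under 1 CPM for 207 members and at least 5 CPM for 97. At the threshold, 7 members had 45 reads, among them PRC1-AS1 and TTBK2-AS1, and SPCS3-AS1 and LCMT1-AS2 with 44 were just outside. Without its highest library a member would still need 40 reads in the other 8 libraries to keep the same average, which 493 reached; the other 35 passed only through the library in which they were highest. Library totals were 14177970 to 18915400 reads, and members held 0.17% to 0.24% of them, with the highest share in the NRF1 library. More of the 1827 named antisense lncRNAs had at least 1 read in the NRF1 (970) and EGR1 (967) libraries than in the other 7 (820 to 869). The same held over all genes of the table, with 26166 and 26296 genes against 23344 to 24593, so it was not particular to antisense lncRNAs. Each inserted TF was 28.4- to 1182-fold higher in its own library than in the control library. VIM was at 965 CPM or more and HBB at 0 in every library, and at most 1 read fell on PTPRC and CDH5, while of 3 genes known from fibroblasts DCN had 0 to 4 reads, COL3A1 was at 2.06 to 4.13 CPM and COL1A1 at 22.6 to 38.8 CPM.

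The 5 members with the highest mean level were FGD5-AS1, THAP9-AS1, VPS9D1-AS1, GABPB1-AS1 and HOXA11-AS, with partners at varied levels. FGD5-AS1, opposite a guanine nucleotide exchange factor of endothelium, was at 82.0 CPM in the control and between 69.8 and 93.7 with the TFs, whereas FGD5 was at 1.85 CPM in the control library and 39.2 in the E2F4 library. In reads, FGD5 had 34 in the control, 701 in the E2F4, 128 in the NRF1 and 27 to 67 in the other 6 libraries. THAP9-AS1, opposite a gene derived from a DNA transposase, was at 58.4 to 71.8 CPM in 8 libraries and lowest in the NKX2-8 library at 41.3. GABPB1-AS1, opposite the beta subunit of the GA-binding protein, was likewise at 34.0 to 43.4 CPM in 8 libraries and at 23.4 in the NKX2-8 library, while GABPB1 was at 21.1 there and at 21.0 to 29.1 in the others. VPS9D1-AS1 was at 38.4 to 47.6 CPM.

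Levels of members and partners can be compared only per length of exon. Over the 468 pairs with a measured partner, the median member stood at 17.0% of the partner's CPM per kb of exon. In 84 pairs the member was above the partner, as in FGD5-AS1 (15.8 against 0.869 CPM per kb) and VPS9D1-AS1 (24.4 against 1.43). At the other end, 17 members, YWHAH-AS1 among them, stood under 0.5% of the partner. The sequencing kit kept strand, and whether the counting used strand is stated in no source used here. As a check, 579 lncRNAs of the table lie with all their exon bases inside exons of an mRNA on the other strand with at least 1000 reads. Their median level was 0.0441% of that mRNA per kb, with a 75 percentile of 0.464%, and 324 of them had at least 1 read. Such a gene can hold reads only if reads in shared bases were assigned by strand or by another rule. By value the 17 members under 0.5% lie within the range of these genes, but only 2 members are among the 579. PRDX6-AS1 (0.332%) shares 0 exon bases with its partner and YWHAH-AS1 22, so the range does not bear on members like these. RORA-AS1 stands at 0.268% of a partner mean that includes the library with RORA inserted.

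In 2 pairs the partner was itself inserted. HOXA11-AS, whose first exon shares 706 bases with exons of HOXA11, had 703 reads in the control library and 750 in the HOXA11 library, in which HOXA11 had 87289 reads against 1241. The ratio was 1.17 (95% interval 1.05 to 1.30, counting error only), and the other 7 libraries held 415 to 690 reads of HOXA11-AS, lowest in NKX2-8. On the CPM scale HOXA11-AS was at 44.6 in the HOXA11 library and 38.2 in the control library. RORA-AS1 had 8 reads in the control library and 1 in the RORA library, a ratio of 0.139 (0.00313 to 1.04), with 2 to 11 reads in the other 7 libraries, so a difference was not detectable at this depth. Both pairs were left out of the correlations below.

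Against the control library, a member was called higher or lower when it changed at least 2-fold, on log2 CPM with a prior count of 2, and reached 1 CPM in the higher of both libraries. In bulk RNA, fewer cells that express a gene and less RNA per cell cannot be told apart. In the NRF1 library 64 members rose and 4 fell. That is 12.1% of members for the rise, where 6.78% of all genes with at least 45 reads and 10.9% of all lncRNAs with at least 45 reads rose; for the fall it is 0.758%, beside 0.208% of all genes. The NRF1 library was the highest of the 9 for 55 of the 64, the counting interval lay above 1 for 62, and the control library was the lowest of the 9 for 16. The interval rests on the same counts as the call, so it is not a separate check. Against the average of the 7 remaining TF libraries, used instead of the control, 48 members rose (9.09%; all genes 4.42%), 40 of which were among the 64. Of the 64, 58 were among the 493 members that hold at least 40 reads when their highest library is left out. The median log2 fold change of members was 0.30, that of other lncRNAs 0.20 and that of all genes -0.01. With library totals as the scale the median of all genes moved to 0.14 and that of members to 0.43, a distance of 0.29 that was 0.31 with TMM.

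The rise in the NRF1 library went with level. Members under 1 CPM had a median of 0.42 and 16.4% of them rose, members at 1 to 5 CPM had 0.32 and 12.9%, and members at 5 CPM or more had 0.06, with 1 of 97 higher. mRNAs of the same ranges showed a like order, with medians of 0.73, 0.39 and -0.08 and 26.8%, 23.0% and 1.19% higher, and other lncRNAs had medians of 0.35, 0.15 and 0.04. The plot of all members by TF library shows the upward shift in NRF1 beside the other libraries.

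**Figure D1:**
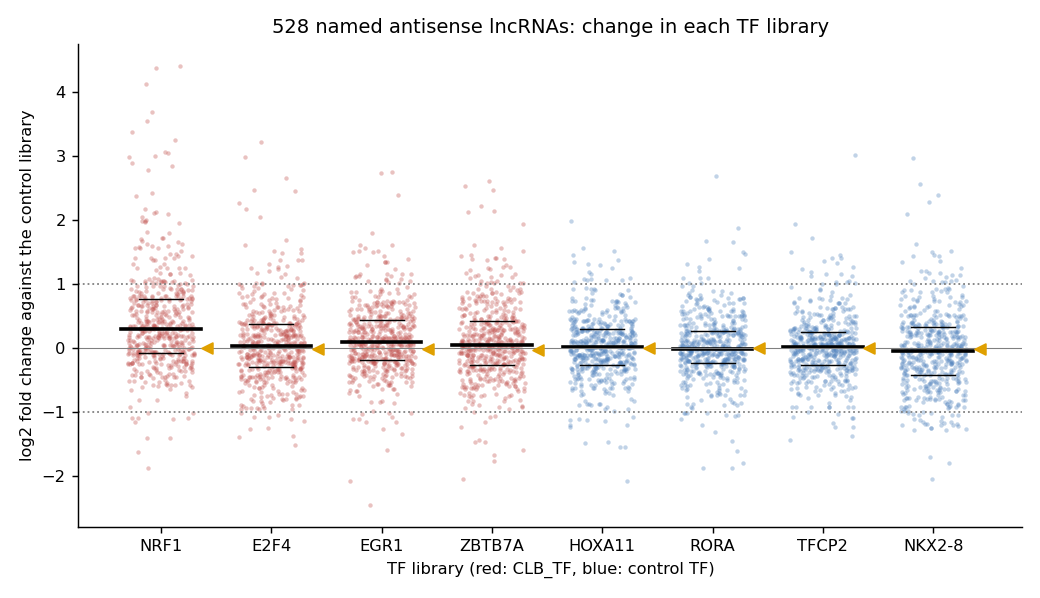
Each point is 1 of the 528 named antisense lncRNAs in 1 TF library, and the y axis gives its log2 fold change against the control library (TMM, prior count 2; 1 library per condition). Thick lines are medians, thin lines quartiles, dotted lines 2-fold, and yellow triangles the median of all genes; the member median is 0.30 in NRF1 and lies between -0.05 and 0.08 in the other 7 libraries. Points past 2-fold are not all called, since a level of 1 CPM was also needed.

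Members with the largest rise in the NRF1 library were nearly silent in the control library. ZNF295-AS1, with no partner by name, had 74 reads in the NRF1 library, 2 in the control and 0 to 5 in the other 7, a ratio of 42.9 (95% interval 11.5 to 361). ADGRA1-AS1 (chr10:134896577-134901995, minus strand), opposite an adhesion G protein-coupled receptor, had 47 reads against 1, a ratio of 54.5 (9.32 to 2198), and it also had 17 in the EGR1 and 13 in the E2F4 library. SMARCA5-AS1 (chr4:144434625-144435788, minus strand), opposite the ATPase of ISWI chromatin remodelling complexes, had 39 reads against 0, which is at least 15.1-fold higher when the control is set to a floor of 3 reads, and 0 to 4 in the other 7. IRX4-AS1 (chr5:1884080-1884763, plus strand), opposite an Iroquois homeobox gene, had 51 reads against 3 (ratio 19.7, 6.38 to 98.8). YWHAH-AS1, opposite a 14-3-3 protein, had 34 against 1 (ratio 39.4, 6.62 to 1603), and TMEM51-AS1 had 55 against 6 (ratio 10.6, 4.58 to 30.2). For ZNF295-AS1, SMARCA5-AS1, IRX4-AS1 and YWHAH-AS1, no library other than NRF1 exceeded 6 reads. These 4 reached 45 reads in total only through the NRF1 library, so a high value in that library was a condition of their selection. ADGRA1-AS1 had 87 reads in total, and without its 47 in the NRF1 library it too was under 45. In the other libraries it still averaged 5 reads, so its selection rested on NRF1 in part.

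SLC26A4-AS1 and KRTAP5-AS1 had a broader pattern. SLC26A4-AS1, opposite the anion exchanger pendrin, had 41 reads in the NRF1, 22 in the EGR1, 21 in the ZBTB7A, 12 in the E2F4 and 3 in the control library, and 3 to 13 with the control TFs. KRTAP5-AS1, which lies among keratin-associated protein genes, had 5 reads in the control library and 14 to 50 in all 8 TF libraries, so the control library was its lowest. Against the average of the 7 remaining TF libraries its log2 difference was 1.10 for NRF1 and -0.30 for RORA.

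**Figure D2:**
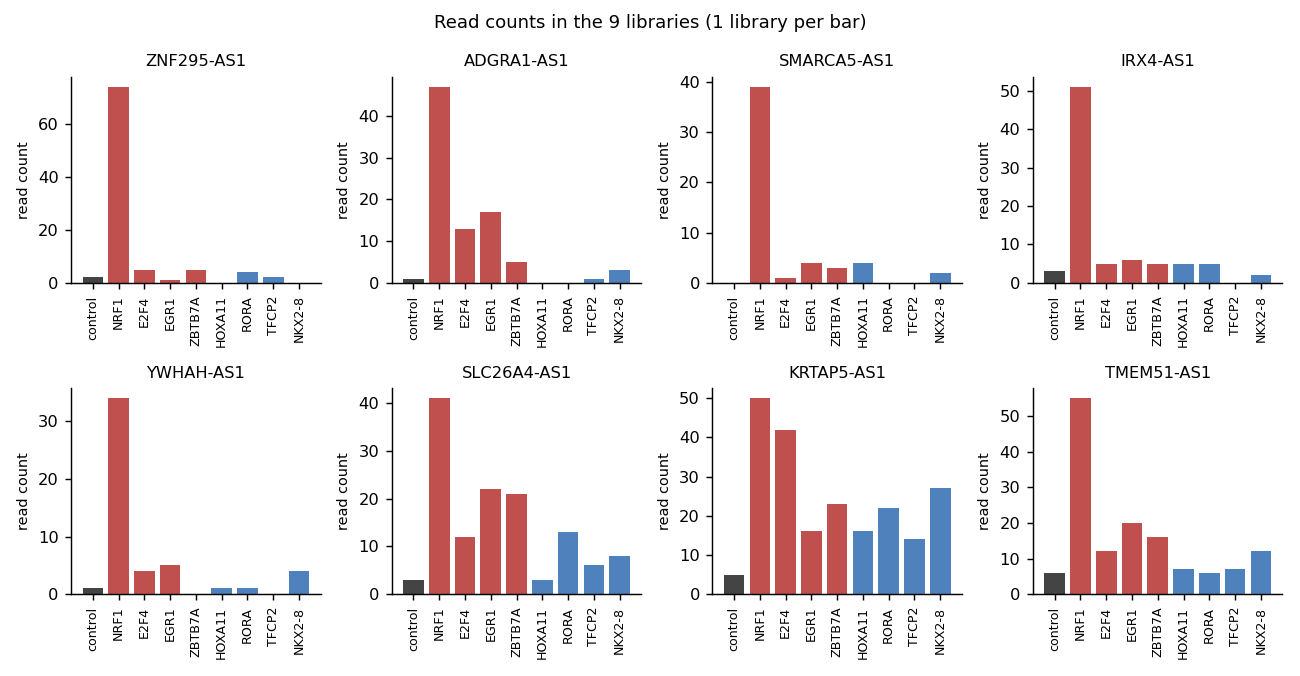
Read counts (y axis, unscaled, starting at 0) of the 8 members with the largest rise in the NRF1 library, in each of the 9 libraries (x axis; dark, control; red, CLB_TF; blue, control TF; 1 library per bar). NRF1 is the highest bar in every panel, from 34 reads for YWHAH-AS1 to 74 for ZNF295-AS1, and KRTAP5-AS1 is low in the control library alone.

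Partners of the members that rose with NRF1 were called higher about as often as other partners. Of the 64, 54 had a measured partner, whose median log2 fold change was -0.04; 4 of these 54 partners rose, while among all 463 measured partners 33 (7.13%) rose and 0 fell. ADGRA1 rose with its antisense from 1 to 106 reads, and IRX4 from 10 to 98. SYT9-AS1, opposite a synaptotagmin, and TRIM7-AS1 completed the 4 and are named because they are so few; SYT9 had 53 reads against 29 and TRIM7 316 against 157. SMARCA5 went from 4516 to 3231 reads, a log2 fold change of -0.27 after scaling, and YWHAH from 2452 to 1776, -0.25. TMEM51 had 168 reads against 166 (0.23). SMARCA5-AS1, with 630 exon bases inside those of SMARCA5, averaged 1.42% of the partner per kb over the 9 libraries, and YWHAH-AS1, with 22 shared bases, 0.373%.

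**Figure D3:**
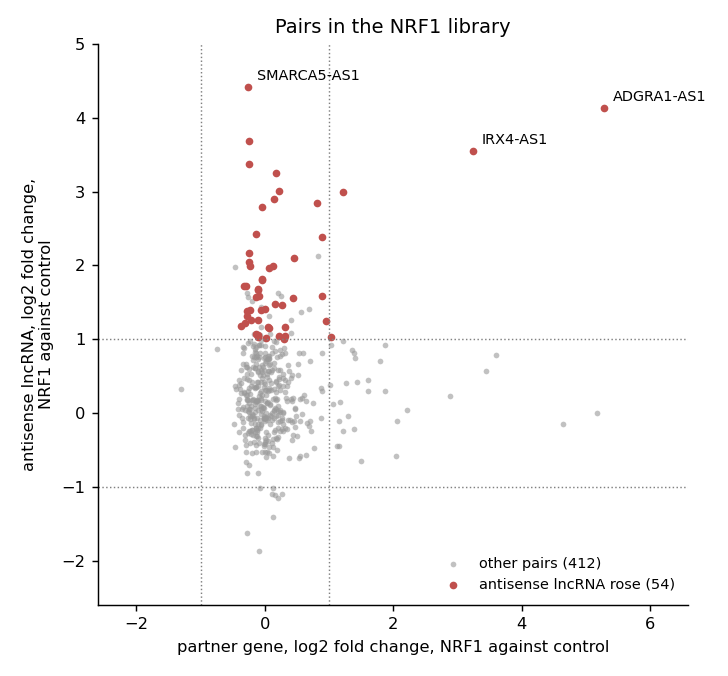
Each point is 1 of 466 pairs, with the log2 fold change in the NRF1 against the control library of the partner gene on the x axis and of the antisense lncRNA on the y axis; red points are the 54 pairs in which the antisense lncRNA was called higher, and dotted lines mark 2-fold. Most red points lie near 0 on the x axis, and ADGRA1-AS1 and IRX4-AS1 are far from 0 on both.

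Falls in the NRF1 library were few. SLC12A5-AS1, opposite the neuronal potassium chloride cotransporter, had 8 reads against 40 (ratio 0.232, 0.0938 to 0.502) and 15 to 38 elsewhere, while SLC12A5 had 34 against 42. GCC2-AS1, opposite a golgin, had 4 against 19 (ratio 0.244, 0.0604 to 0.735).

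In the E2F4 library 16 members rose (3.03%; all genes 3.05%, all lncRNAs 2.8%) and 2 fell (all genes 0.22%), a share of rises close to the background. Against the average of the 7 remaining TF libraries 8 members rose (1.52%; all genes 1.89%), all among the 16. PRDM6-AS1 (chr5:122422943-122425994, minus strand), opposite a PR domain transcriptional regulator, had 255 reads against 46 (ratio 5.71, 4.16 to 7.99). It had 90 reads in the NRF1, 76 in the ZBTB7A and 61 in the EGR1 library and 32 to 48 with the control TFs, whereas PRDM6 had 220 to 294 reads throughout and differed by a log2 fold change of 0.15 in the E2F4 library. RASAL2-AS1, opposite a Ras GTPase-activating protein and starting 157 bases from it, had 58 reads against 9 and 3 to 18 elsewhere (ratio 6.64, 3.27 to 15.2), while RASAL2 had 540 against 445. RAET1E-AS1 had 18 reads against 0, at least 6.18-fold higher on the floor of 3 reads. HILPDA-AS1 fell, with 15 reads against 36 (ratio 0.429, 0.218 to 0.803), a count that is uncertain since it shares 186 exon bases with HILPDA on the same strand. Of 13 risen members with a measured partner, the partner rose in 0, and 14 of all 463 measured partners rose (3.02%), so the number is too small to set apart from that share.

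In the EGR1 library 12 members rose (2.27%; all genes 2.01%, all lncRNAs 2.57%) and 4 fell (0.758%; all genes 0.238%). With the average of the remaining TF libraries as the reference, 3 rose (0.568%; all genes 0.756%) and 1 fell (0.189%; all genes 0.494%). ZNF516-AS1, opposite a zinc finger gene, had 73 reads against 27 (ratio 3.11, 1.97 to 5.02) and 13 to 27 in all others, so it stood out from the TF libraries as well, and ZNF516 had 648 against 637. The other members with the largest rise, ADGRA1-AS1 with 17 reads against 1, SLC26A4-AS1 with 22 against 3 and CCND2-AS1 with 17 against 4, had more reads in the NRF1 library. CCND2, the cyclin D2 gene, had 1124 against 1207 reads. RAB4A-AS1 fell from 21 to 6 reads (ratio 0.328, 0.108 to 0.841), and it had 4 in the RORA library.

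In the ZBTB7A library 16 members rose (3.03%; all genes 1.61%, all lncRNAs 1.67%) and 4 fell (0.758%; all genes 0.369%). ZBTB7A was the highest library for 2 of the 16, and the control library was the lowest for 8. Against the average of the 7 remaining TF libraries 3 members rose (0.568%; all genes 0.28%). HOXC13-AS, whose window is printed above, had 50 reads against 20 (ratio 3.18, 1.86 to 5.63) but 27 to 65 in the 7 remaining libraries, and HOXC13 had 378 against 464, a log2 fold change of 0.05. CCND2-AS1 had 21 against 4, with 38 in the NRF1 library. DNPEP-AS1, opposite an aspartyl aminopeptidase, fell to 5 reads from 21 (ratio 0.303, 0.0892 to 0.825).

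In the NKX2-8 library 10 members rose (1.89%; all genes 2.35%, all lncRNAs 2.97%) and 13 fell (2.46%; all genes 0.744%). All 13 falls had a counting interval below 1, which rests on the same counts as the call. NKX2-8 was the lowest of the 9 libraries for 24.4% of members, beside 19.6% of all genes. Of 277 lncRNAs named as divergent transcripts (symbols ending in -DT) with at least 45 reads, 6 fell in this library. Of these 277, 3 fell in each of ZBTB7A and RORA, 1 in each of E2F4, EGR1 and TFCP2, and 0 in NRF1 and HOXA11. The share of falls over all genes was not matched for level. ZNF436-AS1, which starts 445 bases from the zinc finger gene ZNF436, had 33 reads, the control 93 and the 7 remaining libraries 56 to 98 (ratio 0.433, 0.282 to 0.651), while ZNF436 had 300 against 315. FMNL1-AS1, opposite a formin, had 14 against 42 (ratio 0.407, 0.205 to 0.760), and 19 to 36 elsewhere. PRC1-AS1, at the threshold of 45 reads in all, had 19 of them in this library against 1 in the control (ratio 23.2, 3.69 to 964) and 2 to 6 elsewhere, so it too was selected through the library in which it is high. WEE2-AS1 had 67 against 25 (ratio 3.27, 2.04 to 5.41) and MATN1-AS1 64 against 26 (ratio 3.0, 1.88 to 4.94), with at most 43 reads in any other library for both. Against the average of the 7 remaining TF libraries 4 members rose (0.758%; all genes 0.798%) and 13 fell (2.46%; all genes 1.37%), 6 of these among the first 13.

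The other control TFs moved few members. In the HOXA11 library 4 rose (0.758%; all genes 0.983%, all lncRNAs 1.5%) and 4 fell (all genes 0.286%), in the RORA library 5 rose (0.947%; 0.429% and 0.801%) and 5 fell (all genes 0.328%), and in the TFCP2 library 3 rose (0.568%; 0.411% and 0.902%) and 3 fell (all genes 0.155%). Set against the average of the 7 remaining TF libraries, 0, 1 and 0 members rose in HOXA11, RORA and TFCP2 (all genes 0.185%, 0.0417% and 0.0536%). With that reference 10, 8 and 10 members fell (1.89%, 1.52% and 1.89%), where 1%, 1.2% and 1.38% of all genes did. PARD6G-AS1, opposite a cell polarity gene, had 17, 19 and 18 reads in these libraries, 6 in the control and 5 in the NKX2-8 library. SLC25A25-AS1 had 50 reads in the HOXA11 library, 21 in the control and 43 in the EGR1 library. PAN3-AS1, which starts away from the gene of a deadenylase subunit, had 19 reads in the TFCP2 library against 7, but 21 in the E2F4 library. Among the falls, MCPH1-AS1 had 3 reads in the HOXA11 library against 21 (ratio 0.156, 0.0298 to 0.523) and RAB4A-AS1 4 in the RORA library against 21 (ratio 0.212, 0.0528 to 0.627).

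Conserved lncRNAs, with a counterpart in mouse, made up 114 of the 528 members (21.6%), beside 10.7% of other lncRNAs with at least 45 reads. In the NRF1 library 16 conserved members (14.04%) and 48 of 414 non-conserved members (11.6%) rose, with medians of 0.30 in each set. The median size of change irrespective of direction was 0.44 for conserved and 0.41 for non-conserved members in the NRF1 library, 0.27 and 0.36 in E2F4, 0.29 and 0.31 in EGR1, 0.30 and 0.36 in ZBTB7A. In the control TF libraries it was 0.21 and 0.29 in HOXA11, 0.25 and 0.25 in RORA, 0.26 and 0.26 in TFCP2 and 0.38 and 0.37 in NKX2-8. The conserved members had a higher level, with a median of 1.86 against 1.30 CPM, which was not adjusted for here. HOXA11-AS, CCND2-AS1, WEE2-AS1, FMNL1-AS1 and TRAF3IP2-AS1 are conserved.

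By position relative to the partner, the shares in the NRF1 library were as follows. Of 190 members that start within 1 kb of the partner 22 rose (11.6%), and of 314 that overlap it otherwise 35 rose (11.1%); their median log2 fold changes were 0.20 and 0.30.

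Across the 9 libraries the member and its partner were only loosely related. Over 466 pairs, Pearson's r of log2 CPM had a median of 0.0979, and 275 pairs (59.0%) were positive. The same members paired with each of the 13657 mRNAs had a median of -0.0201 and 48.2% positive. An r of at least 0.8 was seen in 9 pairs (1.93%), where 0.868% of all member and mRNA combinations had one, and an r of -0.8 or less in 6 (1.29%, where 0.935% had one). When each of the 9 libraries was left out in turn, an r of at least 0.8 was seen in 10 (without NKX2-8) to 18 pairs (without EGR1), and in 15 without the control, 16 without NRF1, 14 without ZBTB7A and 14 without TFCP2, while the share of all combinations ran from 1.24% to 1.46%. The partner lay at the 61.1 percentile of all mRNAs in the median pair, and 72 partners were in the top 10 percent. These values describe 9 libraries of different conditions that share depth and scaling, and with library totals in place of TMM the median was 0.232.

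**Figure D4:**
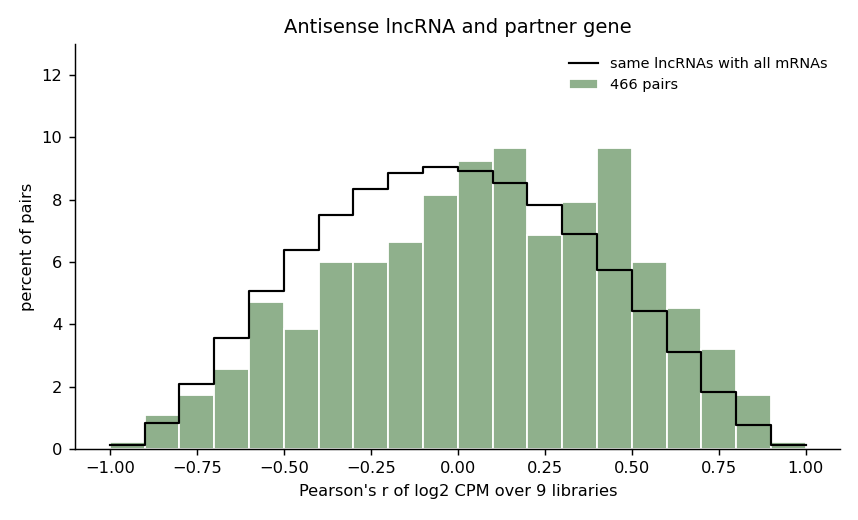
The x axis is Pearson's r over the 9 libraries in steps of 0.1, and the y axis the percent of pairs. Bars are the 466 antisense lncRNA and partner pairs, with a median of 0.0979, and the black line is the same lncRNAs with each mRNA, with a median of -0.0201; the bars lie slightly to the right of the line.

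By position, pairs with starts within 1 kb had a median r of 0.135 (186 pairs) and pairs that overlap otherwise 0.0471 (273 pairs). The 7 pairs with no overlap had 0.416. The 117 pairs with no shared exon base had 0.150, above 0.0748 for the 349 with shared bases. Members under 1 CPM had a median r of 0.174, those at 1 to 5 CPM 0.0632 and those at 5 CPM or more 0.0985, and conserved and non-conserved members had 0.106 and 0.0816. The quartiles over all pairs were -0.215 and 0.401.

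Among pairs whose member averaged at least 1 CPM, TBX2-AS1 (chr17:59470817-59488916, minus strand) had the highest Pearson's r, while by rho RUNDC3A-AS1 (0.92) and LMNTD2-AS1 (0.87) were above it. TBX2-AS1 was at 11.5 CPM in the control library, highest in NRF1 at 14.9 and lowest in NKX2-8 at 8.56, and TBX2, a T-box repressor, was at 39.3, 49.8 and 34.5 CPM in the same libraries. Its r was 0.85 (rho 0.83) and 0.87 without the 2 libraries farthest from the median of the lncRNA, so it did not rest on these. RUNDC3A-AS1 (r 0.85, rho 0.92, and 0.84 without 2 libraries) was highest in ZBTB7A at 3.87 CPM and NKX2-8 at 3.72 and lowest in E2F4 at 1.46, where RUNDC3A was at 4.77, 7.76 and 1.29 CPM. LMNTD2-AS1, LENG8-AS1, TRAF3IP2-AS1 and SPEN-AS1 had r of 0.84, 0.84, 0.83 and 0.78, but 0.59, 0.23, 0.56 and 0.41 without 2 libraries, of which NKX2-8 was 1 in all 4. LENG8-AS1 was at 1.39 CPM in the NKX2-8 library and 2.05 to 3.21 elsewhere, and LENG8 at 94.5 CPM there and 142 to 183 elsewhere.

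Among the same pairs the lowest r belonged to RFX5-AS1, which starts 390 bases from RFX5, a factor of MHC class II gene promoters. RFX5-AS1 had 18 reads in the control library, 23 to 26 in the CLB_TF libraries and the NKX2-8 library, and 15 to 19 in HOXA11, RORA and TFCP2, while RFX5 was at 111 CPM in the control library, at 97.4 to 102 in the former 5 and at 108 to 109 in the latter 3. Its r was -0.89 (rho -0.82), and -0.92 without 2 libraries. All 9 unscaled counts of the lncRNA, 15 to 26, lie inside the exact 95% Poisson interval of the control count (10.7 to 28.4). That interval takes no account of library depth, whereas r was computed on scaled values. On the CPM scale the lncRNA was at 0.979 in the control library, 0.906 in RORA and 1.80 in ZBTB7A. With counts this low and no depth in the interval, whether the libraries differed was left undecided. STARD7-AS1, opposite a lipid transfer protein, was highest in NRF1 at 5.36 CPM and lowest in EGR1 at 2.50, where STARD7 was at 208 and 231 CPM (r -0.81, rho -0.88, -0.91 without 2). CCDC18-AS1 (r -0.85) was at 6.37 CPM in the NKX2-8 library and 8.68 or more elsewhere, with CCDC18 highest there at 24.4, and its relation rested on the NKX2-8 and NRF1 libraries, since r was -0.25 without them. PRDX6-AS1 (r -0.83, -0.50 without E2F4 and NRF1), which does not overlap the peroxiredoxin gene PRDX6, was highest in NRF1 with 44 reads against 14 in the control and 9 to 25 elsewhere.

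**Figure D5:**
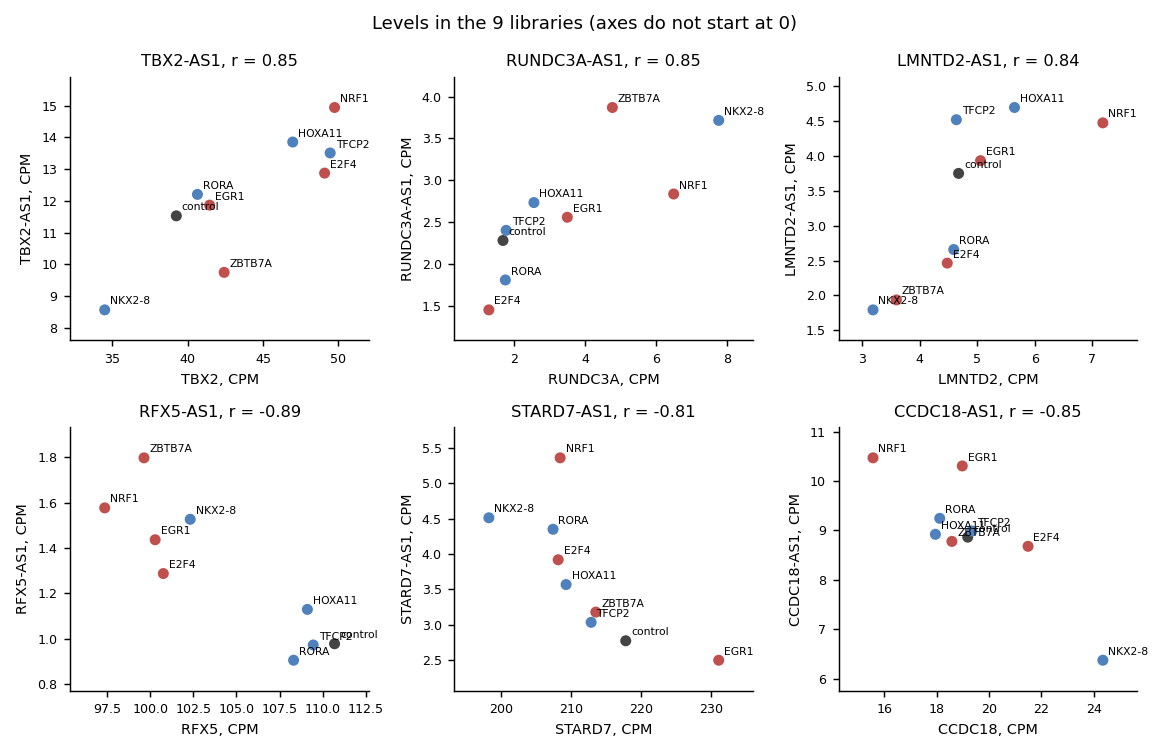
Each panel is 1 pair, each point 1 of the 9 libraries (dark, control; red, CLB_TF; blue, control TF), with the CPM of the partner on the x axis and of the antisense lncRNA on the y axis; axes do not start at 0. Among pairs whose member averaged at least 1 CPM, the upper row holds the 3 with the highest r and the lower row 3 of the 4 with the lowest, and in CCDC18-AS1 the NKX2-8 library lies apart at 6.37 CPM.

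Within each TF library, the log2 fold changes of member and partner against the control library were also loosely related across pairs. Over 466 pairs r across genes was 0.101 in NRF1, 0.178 in E2F4, 0.0634 in EGR1, 0.0923 in ZBTB7A, 0.152 in HOXA11, 0.0277 in RORA, -0.0467 in TFCP2 and 0.134 in NKX2-8. Member and partner share both libraries in each of these values, and genes are not independent replicates. Over the 283 pairs whose member averaged at least 1 CPM, r was -0.0298 in NRF1, 0.0182 in E2F4, 0.0439 in EGR1, 0.0452 in ZBTB7A, 0.223 in HOXA11, 0.126 in RORA, 0.0523 in TFCP2 and 0.0708 in NKX2-8, so its sign turned in NRF1 and TFCP2.

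Between the 4 CLB_TF and the 4 control TF libraries, where different TFs take the place of replicates, edgeR's quasi-likelihood test found 0 of 402 tested members at an adjusted p under 0.05 (6 of 15012 genes, 0.04%). At an unadjusted p under 0.05 there were 36 members (8.96%, all genes 10.2%), 29 of them higher in the CLB_TF libraries and 7 lower. In 23 members (5.72%, all genes 6.79%) the classes did not overlap, 16 with CLB_TFs higher and 7 lower. DESeq2 called 3 members (0.746%; all genes 142, 0.948%), which are named for that reason. With no filter on low counts 19 members passed (3.6%; all genes 2.26%), and without the EGR1 library 1 did, PRDM6-AS1 (0.236%; all genes 0.393%). ADNP-AS1, opposite a homeobox chromatin factor, was at 0.896 to 2.59 CPM in the CLB_TF and 0 to 0.357 in the control TF libraries, with a log2 difference of 2.79 ± 0.573 (SE, n = 4 and 4; edgeR adjusted p = 0.135, and 1.79e-06 to 0.413 over the alternatives). PRDM6-AS1 was at 3.81 to 14.3 and 1.90 to 2.90 CPM (1.66 ± 0.366; edgeR adjusted p = 0.151, 9.57e-11 to 0.418 over the alternatives). SOX21-AS1, opposite a SOX family gene, was at 11.7 to 14.1 and 8.96 to 10.2 CPM (0.47 ± 0.105; edgeR adjusted p = 0.161, 0.0301 to 0.413 over the alternatives). All 3 were higher in each of the 4 CLB_TF libraries than in any control TF library.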

How the data were processed

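RNA-seq of 293T cells was measured in 9 libraries, 1 per condition. The authors checked reads with FastQC 0.11.2, aligned read pairs with STAR 2.6.0c to GRCh37 and kept uniquely mapped reads, which featureCounts 1.6.3 counted per gene. The deposited table holds raw counts of 57163 genes with no normalization, and per the labels the library kit was directional. Here counts were scaled by TMM (edgeR 4.0.16, R 4.3.3) to CPM. Symbols and gene types came from GENCODE (release 44 lifted to GRCh37), positions and exons from the deposited table, and the conserved set from the study. Members, partners, lists and tests were chosen with earlier results of these data known.

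A gene changed at 2-fold or more (log2, prior count of 2) with at least 1 CPM in the higher library. With 1 library per condition there is no p-value for a TF against the control. Ratios have exact conditional binomial intervals at 95%, which cover counting error only. A count of 0 was set to a floor of 3. The 4 CLB_TF and 4 control TF libraries were compared after filterByExpr by edgeR's quasi-likelihood test, with Benjamini-Hochberg adjustment over all genes at 0.05. The test was also tried on simulated data with a dispersion fixed at 0.05. Changed genes there were drawn only from those expected at more than 50 reads per library. The test called 5 of 50 genes changed 1.5-fold, 39 of 50 changed 2-fold and 50 of 50 changed 4-fold. It also called 7 of 14812 unchanged genes. The median member had 211.5 reads over 9 libraries, so these shares do not carry over to most members. In the real libraries the spread within a class is between TFs. Named members were, by rule, those with the largest rise (NRF1 8; E2F4, EGR1, ZBTB7A and NKX2-8 4 each; the others 2 each) and fall (1 each; NRF1 and NKX2-8 2), ranked with a prior count of 5, the 5 highest in mean CPM, the 6 highest and 4 lowest in r at a member mean of at least 1 CPM, the pairs of an inserted TF and those next to the threshold. The fall that this rule names in the TFCP2 library is not reported here. Alternatives were library totals, DESeq2 1.42.0, other minima and prior counts, a reference made of the 7 remaining TF libraries, Spearman's rho, other sets of pairs, 500 bases before the start for motifs and leaving out each library.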

Additional observations from a re-analysis of the deposited data

Results flagged for a closer look

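Named members were tested within each class of 4 TF libraries for a value whose gap to the nearest other library, as a share of the whole range of log2 CPM, exceeded Dixon's 95% limit for 4 values. Of 90 groups of 4 in 45 members, 8 passed, and chance alone flags about 1 in 20 such groups. Most of these members were named because of a large change or r, so the flags are not independent of that choice. For IRX4-AS1 the flag carries no information, since a high value in the NRF1 library was a condition of its selection. Among the control TF libraries, NKX2-8 stood apart as the lowest for CCDC18-AS1 (share 0.904, 2.70 on the log2 CPM scale against 3.18 to 3.23), PARD6G-AS1 (0.889, -1.14 against 0.18 to 0.34) and ZNF436-AS1 (0.898, 1.21 against 2.39 to 2.53), and as the highest for TMEM51-AS1 (0.835, -0.12 against -1.05 to -0.90). HOXA11 stood apart as the lowest for MCPH1-AS1 (0.836, -1.74 against -0.73 to -0.53), where it had 3 reads. Among the CLB_TF libraries, NRF1 stood apart as the highest for IRX4-AS1 (0.900, 1.74 against -1.32 to -1.01) and PRDX6-AS1 (0.856, 1.53 against 0.45 to 0.60), and E2F4 for PAN3-AS1 (0.834, 0.37 against -0.30 to -0.19).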

How the results depend on the processing

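Counts of risen and fallen members turned mostly on the minimum level and the reference. Of 128 recomputed counts, 75 stayed within 1.5 times the reported one, among them all 16 with DESeq2 size factors and all 16 for members that reach the minimum without their highest library, an alternative chosen after seeing the data (58 rises in NRF1). The share of rises in NRF1 was above that of all genes under each of the 8 alternatives, from 7.77% (all genes 4.20%) with a minimum of 2 CPM to 16.1% (8.22%) with library totals. That background is not matched for level. At under 1, 1 to 5 and at least 5 CPM, members rose less often than mRNAs (16.4% against 26.8%, 12.9% against 23.0% and 1.03% against 1.19%). In the same ranges other lncRNAs rose less often than members (13.1%, 8.43% and 0.498%). With a minimum of 2 CPM, rises were 41 in NRF1, 5 in E2F4 (0.947%; all genes 2.32%), 3 in EGR1 (0.568%; 0.935%), 7 in ZBTB7A (1.33%; 0.905%) and 1 each in HOXA11, RORA and TFCP2, and falls were 0 in E2F4, EGR1, HOXA11 and TFCP2, 1 in ZBTB7A and RORA and 8 in NKX2-8. The rises in HOXA11, RORA and TFCP2 were 0.189% each (all genes 0.435%, 0.125% and 0.113%). Falls were 0.189% in ZBTB7A and RORA (all genes 0.101% and 0.0893%) and 1.52% in NKX2-8 (0.310%). Where 0 members fell, 0.0238% to 0.0655% of all genes did. With a minimum of 0.5 CPM, rises were 30 in E2F4, 23 in EGR1, 29 in ZBTB7A, 10 in HOXA11, 12 in RORA, 14 in TFCP2 and 19 in NKX2-8, and falls were 9 in NRF1, 6 in E2F4, 11 in EGR1, 9 in ZBTB7A, 8 in HOXA11, 6 in TFCP2 and 26 in NKX2-8. In the same order, these rises were 5.68% (all genes 4.08%), 4.36% (3.48%), 5.49% (2.81%), 1.89% (1.84%), 2.27% (1.22%), 2.65% (1.14%) and 3.60% (3.68%). The falls were 1.70% (all genes 0.494%), 1.14% (0.685%), 2.08% (0.673%), 1.70% (0.959%), 1.52% (0.727%), 1.14% (0.602%) and 4.92% (1.52%). A prior count of 0.5 gave 5 rises (0.947%; all genes 0.560%) and 5 falls (0.947%; 0.244%) in TFCP2. A prior count of 5 gave 10 rises in ZBTB7A and 2 in HOXA11, and 0 falls in E2F4, 1 in EGR1, 2 in ZBTB7A, 2 in RORA, 1 in TFCP2 and 5 in NKX2-8. In the same order, these rises were 1.89% (all genes 1.27%) and 0.379% (0.631%). The falls were 0% (all genes 0.0893%), 0.189% (0.0893%), 0.379% (0.238%), 0.379% (0.208%), 0.189% (0.0655%) and 0.947% (0.441%). With the mean of the other 7 TF libraries as reference, rises were 8 in E2F4, 3 in EGR1, 3 in ZBTB7A, 0 in HOXA11, 1 in RORA, 0 in TFCP2 and 4 in NKX2-8, and falls were 1 in NRF1, 5 in E2F4, 1 in EGR1, 2 in ZBTB7A, 10 in HOXA11, 8 in RORA and 10 in TFCP2. Shares of these not given in the results were falls of 0.189% in NRF1 (all genes 0.220%), 0.947% in E2F4 (0.667%) and 0.379% in ZBTB7A (0.637%). Library totals gave 1 fall in E2F4 (0.189%; all genes 0.167%). Apart from the minimum level, which by its construction admits fewer or more genes, the cause was not tested.

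The median r of the pairs was 0.232 with library totals and 0.150 over the 117 pairs with no shared exon base, and stayed positive in all alternatives. Pairs with r of at least 0.8 were 3 of 117 (2.56%) with no shared exon base, beside 9 of all 466 (1.93%), and 10 to 18 when any 1 of the 9 libraries was left out, where 1.24% to 1.46% of all combinations reached it. Between the TF classes, DESeq2 called 3 members, the test without a filter on low counts 19 (3.6%; all genes 2.26%), and leaving out any 1 of the 8 TF libraries 0 to 1. The NRF1 motif stood in 11 windows of 500 bases upstream. No paired analysis was possible because each condition had 1 library. Depth limits most members, since the median member had 211.5 reads over 9 libraries.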
